A study of Mus musculus with 40 samples.

Results

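The 10 genes described here are Nfe2l2, which encodes the transcription factor NRF2, its inhibitor Keap1, and 8 genes that are widely used as readouts of NRF2 activity or of oxidative stress, namely Slc7a11, Gclc, Gclm, Srxn1, Txnrd1, G6pdx, Nqo1, and Hmox1. They were chosen by name, as 10 of the 55487 genes in the count table, and all 10 were among the 20297 genes that passed the filter on low counts. Slc7a11 passed it through the knockout libraries, since 14 of 19 HNKO libraries but only 1 of 19 WT libraries reached the cutoff of 0.378 CPM (counts scaled to a common library size). A filter passed in this way favours a higher level in HNKO, so the counts of members called are also given without Slc7a11.

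The livers came from female C57BL/6JBomTac mice that had been moved from a fortified breeding chow to a purified control diet (PD) at 9 weeks of age. HNKO mice carry a floxed Nampt gene (Nampt fl/fl) and Alb-Cre+/-, a Cre recombinase driven by the albumin promoter. The study describes this as a knockout of Nampt specific to hepatocytes. In which liver cells Nampt was lost cannot be seen in whole liver RNA. WT mice were floxed littermates. After 3 days on PD there were 5 WT and 5 HNKO livers, after 6 days 4 and 5, after 12 days 5 and 6, and after 21 days 5 and 3. A further 2 HNKO libraries of day 21 were described as failed in quality control and were left out. The labels enter these days under age, but in the study's methods they are the time on PD, which is used here. Whole liver RNA depleted of rRNA was sequenced, and each library is from 1 mouse.

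NRF2 is held in the cytoplasm by KEAP1, which hands it to a CUL3 ubiquitin ligase for degradation. Oxidants and electrophiles modify cysteines of KEAP1, and NRF2 then accumulates, enters the nucleus, pairs with small MAF proteins, and binds antioxidant response elements near genes for glutathione synthesis, thiol repair, NADPH supply, quinone reduction, and heme breakdown. In the liver this pathway is known for protecting hepatocytes from reactive drug metabolites. Because NRF2 is mainly controlled through protein stability, the mRNA of Nfe2l2 itself reports little of its activity.

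The core of the antioxidant response element is TGACNNNGC. In the RefSeq promoters of GRCm38.p6, which run from 250 bases before to 50 bases after a gene's start, this motif was found on either strand in 12.4% of 32851 promoters. The members had 10 promoters of 8 genes in this set, and 5 of the 10 held the motif (Gclc and Hmox1 were not matched). The short stretches below are shown because they are the matches that lie upstream of a member's start, written 5′ to 3′ along the gene with the matched bases in capitals, where a match that begins with GC lies on the opposite strand.
Gclm, 134 to 126 bases before the start, chr3:122245413-122245441, plus strand: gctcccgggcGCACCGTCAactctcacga
Txnrd1, second of 3 promoters, 92 to 84 bases before the start, chr10:82859104-82859132, plus strand: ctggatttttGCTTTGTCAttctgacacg
G6pdx, 57 to 49 bases before the start, chrX:74428919-74428947, minus strand: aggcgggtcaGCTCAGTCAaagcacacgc
Nfe2l2, 240 to 232 bases before the start, chr2:75704885-75704913, minus strand: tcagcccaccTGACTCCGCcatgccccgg
The match in Srxn1 lay after the start and is not printed. The promoters of Slc7a11, Keap1, and Nqo1 held no match in these 300 bases. The starts are those of RefSeq, and the stretches of G6pdx and Txnrd1 lie inside the longer spans that GENCODE M21 gives these genes. A match is a description of the letters, and binding was not measured.

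The targeted gene was checked first. Nampt, the rate-limiting enzyme of NAD salvage, was lower in HNKO. Its log2 fold change, given here and below as HNKO against WT ± SE, was -0.93 ± 0.23 (adjusted p = 0.019) on day 3, -0.90 ± 0.24 (adjusted p = 0.013) on day 6, -0.82 ± 0.22 (adjusted p = 0.021) on day 12, and -0.69 ± 0.27 (adjusted p = 0.16) on day 21, by edgeR's quasi-likelihood test with Benjamini-Hochberg adjustment over all tested genes, the test used throughout. In the mean over the 4 days it was -0.83 ± 0.12 (adjusted p = 2.6e-06). That call held when each of the 38 libraries was left out (adjusted p up to 2.6e-05). Every HNKO liver lay below every WT liver on days 3, 12, and 21, as held for 1.8%, 2.14%, and 6.7% of all tested genes. The calls of single days were decided by single libraries. The call on day 3 was lost without WT library 5, that on day 6 without WT library 8 or 10 or HNKO library 29, and that on day 12 without HNKO library 35 or WT library 16, where the log2 fold change was -0.47 (adjusted p = 0.14). With the groups of a day fitted alone, adjusted p was 0.084 on day 6, 0.077 on day 12, and 0.025 on day 21. The total count per library ranged from 16151037 to 64181492 (median 26466478.5). No library number occurs in more than 1 group, and nothing states how mice of a group are related beyond 1 mouse per library. The libraries are numbered 1 to 41 and fall into numbers up to 21 and from 22, and the 3 HNKO libraries of day 21 all belong to the second run of numbers, while the WT libraries of that day come from both.

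On single days, 0 to 2 of the 10 members were called between HNKO and WT. On day 3, 1 of the 10 was called higher (Slc7a11) and 0 lower, against 2.95% of all tested genes called higher and 1.71% lower. On day 6, 2 were called higher (Slc7a11 and Hmox1) and 0 lower, against 8.42% and 4.37%. On day 12, 1 was called higher (Slc7a11) and 0 lower, against 4.56% and 3.27%. On day 21, 0 were called in either direction, against 2.21% and 0.916% (634 genes, but 13 without HNKO library 37), with 2 members (Keap1 and Gclc) at an unadjusted p under 0.05, as were 3655 of the 20297 tested genes. DESeq2 called the same numbers of members, 1, 2, 1, and 0. In the mean over the 4 days, 3 members were higher (Slc7a11, Srxn1, and Hmox1) and 1 was lower (Keap1), while 19.2% of all tested genes were higher and 17.3% lower. With 10 members, 1 call is a step of 10%, so these counts do not set the members apart from all tested genes. Without Slc7a11, 1 of the other 9 members was called on day 6 (Hmox1) and 0 on days 3, 12, and 21, and 2 were called higher and 1 lower in the mean. The median log2 fold change of the 10 members was 0.07 on day 3, 0.07 on day 6, -0.01 on day 12, and -0.03 on day 21, beside medians of 0.01, -0.01, 0.00, and -0.01 over all tested genes.

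**Figure D1:**
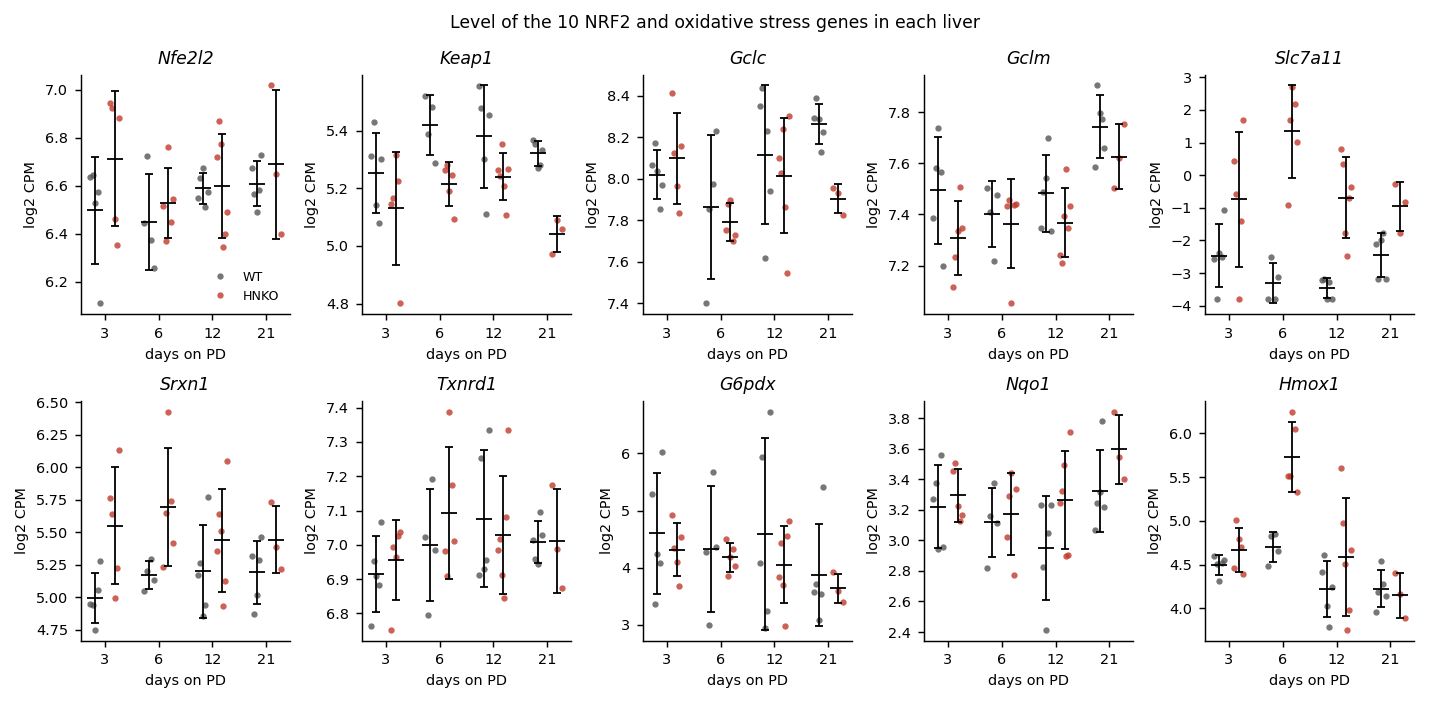
Level of each member (log2 CPM, y axis) in each of the 38 livers by days on PD (x axis), for WT (grey) and HNKO (red) mice, with black bars for the mean ± SD of a group. The HNKO livers lie above every WT liver for Hmox1 on day 6 and for Slc7a11 on days 6 and 12, while most other groups overlap. Of all tested genes, 8.08% lie so on day 6 and 2.65% on day 12.

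Per length of exon, the members spanned a wide range in WT liver. The median over the 19 WT livers was 74.4 CPM per kb for Gclc, 29.7 for Gclm, 25.1 for Nfe2l2, 17.5 for Txnrd1, 12.7 for Hmox1, 12.5 for Srxn1, 8.57 for Keap1, 5.94 for Nqo1, 5.51 for G6pdx, and 0.00282 for Slc7a11. Neighbours in this order had overlapping ranges over the 19 livers, except Gclc (44.8 to 92.1), whose lowest liver lay above the highest of Gclm (38.1), and Slc7a11 (0 to 0.0288), whose highest lay below the lowest of G6pdx (2.47).

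Nfe2l2, which encodes NRF2, was not called at any day. It had a log2 fold change of 0.22 ± 0.12 on day 3, 0.07 ± 0.13 on day 6, 0.02 ± 0.12 on day 12, and 0.10 ± 0.14 on day 21, and adjusted p ranged from 0.31 to 0.93. The 95% confidence interval of the mean over the 4 days was -0.03 to 0.24 on the log2 scale.

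Keap1 (chr9:21229730-21239361, minus strand), the inhibitor of NRF2, was slightly lower in HNKO. On day 6 the log2 CPM was 5.26, 5.28, 5.19, 5.25, and 5.09 in HNKO and 5.52, 5.39, 5.48, and 5.29 in WT, so that every HNKO liver lay below every WT liver. The groups were also apart on day 21, with 4.97, 5.09, and 5.06 in HNKO and 5.37, 5.36, 5.27, 5.28, and 5.33 in WT. Among all tested genes, 4.68% were lower without overlap on day 6 and 6.7% on day 21. The log2 fold change was -0.21 ± 0.09 (adjusted p = 0.11) on day 6 and -0.28 ± 0.09 (adjusted p = 0.091) on day 21, and neither passed the threshold. Over the 4 days the log2 fold change was -0.19 ± 0.04 (adjusted p = 0.00069). An antisense gene, Gm16754, overlaps an exon of Keap1 and had a median of 41.5 counts. The use of strand in counting is not given in the sources used here, so reads of such pairs cannot be told apart.

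Slc7a11 (chr3:49892526-50443614, minus strand) encodes xCT, the cystine importer that supplies cysteine for glutathione. It was almost absent from WT liver, and in HNKO it was called higher on days 3, 6, and 12, of which days 6 and 12 were also called with no filter beyond 1 count. On day 6 the raw counts were 10, 92, 279, 79, and 70 in HNKO and 0, 2, 0, and 1 in WT. On day 12 the HNKO counts ran from 3 to 55 (log2 CPM of -2.48 to 0.81, median -0.53) and the WT counts were 1, 1, 0, 1, and 0. All HNKO livers lay above all WT livers at both days, as did 8.08% of all tested genes on day 6 and 2.65% on day 12.

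On day 3 the counts were 35, 14, 0, 10, and 72 in HNKO and 3, 0, 2, 3, and 10 in WT, so that the HNKO livers were split, with 3 of 5 above every WT liver after scaling and 1 at 0. On day 21 they were 23, 5, and 16 in HNKO and 4, 1, 12, 5, and 1 in WT, and 2 of 3 HNKO livers lay above every WT liver after scaling.

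Summed over a group and scaled, the ratio of HNKO to WT was 6.83 on day 3 (95% interval 4.15 to 11.9), 104 on day 6 (35.4 to 506), 34.2 on day 12 (11.4 to 168), and 3.68 on day 21 (2.18 to 6.39), where the intervals cover counting error only. The WT sums behind the ratios of days 6 and 12 were 3 counts each, so their size is loosely set. The fitted log2 fold change, which depends on the prior count for such a gene, was 2.80 ± 0.83 (adjusted p = 0.045) on day 3, 6.41 ± 1.11 (adjusted p = 0.0003) on day 6, 4.84 ± 1.09 (adjusted p = 0.0077) on day 12, and 1.87 ± 0.94 (adjusted p = 0.29) on day 21. In the mean over the 4 days it was 3.98 ± 0.51 (adjusted p = 2.7e-07). The call on day 3 was lost when any of 7 of the 10 libraries was left out (HNKO libraries 2, 3, and 23 and WT libraries 1, 5, 24, and 25), with adjusted p up to 0.24 and a log2 fold change of 1.88 without HNKO library 23. It was also lost with no filter beyond 1 count (adjusted p = 0.056) and with all 40 libraries, at a log2 fold change of 2.80 in both. With no filter beyond 1 count, adjusted p for Slc7a11 was 0.00013 on day 6, 0.0072 on day 12, and 4.99e-08 in the mean over the 4 days. Even at its highest, in HNKO on day 6, the level was 0.238 ± 0.167 CPM per kb (SD, n = 5), below the lowest WT level of any other member. Within the first and the second run of library numbers, the difference of mean log2 CPM was 1.87 and 2.12 on day 3, 3.54 and 5.44 on day 6, and 3.19 and 2.36 on day 12.

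Gclc and Gclm encode the catalytic and the modifier subunit of glutamate-cysteine ligase, the first step of glutathione synthesis. Neither was called at any day. For Gclc on day 21 the log2 CPM was 7.95, 7.93, and 7.83 in HNKO and 8.29, 8.39, 8.29, 8.13, and 8.23 in WT. The HNKO livers were thus lower without overlap, as held for 6.7% of all tested genes. The log2 fold change was -0.36 ± 0.16 (adjusted p = 0.22). On days 3, 6, and 12 Gclc overlapped, with log2 fold changes of 0.09 ± 0.14, -0.10 ± 0.15, and -0.11 ± 0.13. Gclm had a log2 fold change between -0.19 ± 0.10 on day 3 and -0.03 ± 0.11 on day 6. In the mean over the 4 days it was -0.11 ± 0.05 (adjusted p = 0.083). That mean passed the test without WT library 26 (adjusted p = 0.038) or HNKO library 22 (adjusted p = 0.0499). It also passed with all 40 libraries, at a log2 fold change of -0.13. An exon of Gm17494 overlaps Gclm on the opposite strand, with a median of 66.5 counts, and 4.54% of the stretches of 51 bases in Gclm occur in other genes. 

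Srxn1 (chr2:152105516-152111376, plus strand) encodes sulfiredoxin, which repairs overoxidized peroxiredoxins. On day 6 the log2 CPM was 5.24, 5.65, 6.43, 5.74, and 5.42 in HNKO and 5.05, 5.20, 5.30, and 5.14 in WT, and 4 of 5 HNKO livers lay above every WT liver. On day 3 it was 5.76, 5.64, 5.0, 5.22, and 6.13 in HNKO and 4.95, 4.95, 4.75, 5.06, and 5.28 in WT, with 3 of 5 above. The log2 fold change was 0.60 ± 0.21 (adjusted p = 0.086) on day 3 and 0.59 ± 0.22 (adjusted p = 0.078) on day 6, and 0.25 ± 0.20 and 0.25 ± 0.24 on days 12 and 21. In the mean over the 4 days it was 0.42 ± 0.11 (adjusted p = 0.0025). Without HNKO library 29, the liver with the highest level on day 6, the log2 fold change on that day was 0.37 (adjusted p = 0.35). Without HNKO library 23, that of day 3 was 0.44 (adjusted p = 0.28). Without HNKO library 4 or 22 the test on day 3 passed (adjusted p = 0.035 and 0.048), as did that on day 6 without HNKO library 6 (adjusted p = 0.037).

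Txnrd1, the cytosolic thioredoxin reductase, showed log2 fold changes of 0.04, 0.10, -0.05, and 0.01 on days 3, 6, 12, and 21 (SE 0.10 to 0.11). The 95% confidence interval of its mean over the 4 days was -0.08 to 0.13. Nqo1, a quinone reductase and a standard NRF2 target gene, had log2 fold changes of 0.06 ± 0.17, 0.07 ± 0.18, 0.31 ± 0.16, and 0.27 ± 0.19, with adjusted p from 0.23 to 0.88. On day 12, 4 of 6 HNKO livers lay above every WT liver for Nqo1, and on day 21, 1 of 3 did.

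Hmox1 (chr8:75093621-75100589, plus strand) encodes heme oxygenase 1, which opens the heme ring and is strongly expressed in macrophages that clear red cells. On day 6 the log2 CPM was 5.51, 5.51, 6.25, 6.05, and 5.33 in HNKO and 4.48, 4.83, 4.84, and 4.66 in WT. Every HNKO liver was thus above every WT liver, as held for 8.08% of all tested genes. The log2 fold change was 1.07 ± 0.24 (adjusted p = 0.0031), and it stayed between 0.94 and 1.16 with adjusted p up to 0.017 when each of the 9 libraries was left out. Within the libraries numbered up to 21 the difference of mean log2 CPM on day 6 was 0.86 (2 HNKO and 2 WT), and within those from 22 it was 1.12 (3 HNKO and 2 WT). On day 12 the HNKO livers ran from 3.76 to 5.61 (median 4.59), around the WT values of 4.42, 4.61, 4.03, 3.79, and 4.25, and the log2 fold change was 0.47 ± 0.21 (adjusted p = 0.17). Without HNKO library 11 it was 0.20, and the difference of mean log2 CPM was 0.68 and 0.11 within the first and the second run of library numbers. On days 3 and 21 it was 0.19 ± 0.22 and -0.07 ± 0.26, and in the mean over the 4 days it was 0.41 ± 0.12 (adjusted p = 0.0052). Day 6 was thus the single day at which Hmox1 passed the test.

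**Figure D2:**
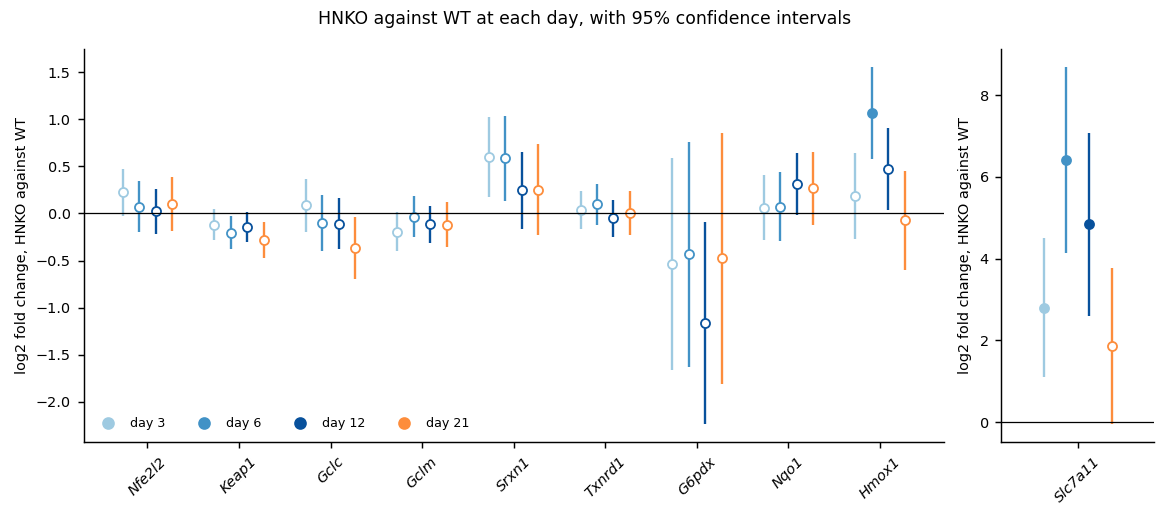
Log2 fold change of HNKO against WT (y axis) for each member on days 3, 6, 12, and 21, with bars for the 95% confidence interval, filled where the adjusted p was under 0.05 and open otherwise, and Slc7a11 on an axis of its own. Hmox1 on day 6 (1.07) and Slc7a11 on days 3, 6, and 12 (2.80, 6.41, and 4.84) are filled.

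G6pdx (chrX:74409483-74429194, minus strand), the first enzyme of the pentose phosphate pathway and a source of NADPH, varied widely among WT livers, with an SD of log2 CPM of 0.89 to 1.67 over the 4 days against 0.25 to 0.68 in HNKO. Its log2 CPM in WT was 5.30, 3.37, 4.24, 4.08, and 6.03 on day 3, 4.28, 3.00, 5.68, and 4.36 on day 6, 4.09, 5.95, 2.94, 3.25, and 6.73 on day 12, and 3.58, 3.72, 3.09, 3.55, and 5.41 on day 21. All HNKO livers lay within the WT range of their day, for example from 2.98 to 4.82 on day 12. The log2 fold change was negative at each day, from -0.44 ± 0.59 to -1.17 ± 0.52, and -0.65 ± 0.29 (adjusted p = 0.077) in the mean over the 4 days. It passed the test without WT library 10, 16, or 33 (adjusted p = 0.048, 0.039, and 0.043). Single WT livers set its size, since it was -0.04 on day 3 without WT library 26 (-0.54 with it) and -0.41 on day 12 without WT library 34, and it turned positive on day 6 without WT library 27 (0.20) and on day 21 without WT library 41 (0.17). The difference of mean log2 CPM was 0.13 on day 3 and 0.54 on day 6 within the first run of library numbers but -0.67 and -0.83 within the second, so the direction on these days did not hold within both runs. On day 12 it was -0.33 and -0.87, and on day 21, with HNKO in the second run alone, -0.84. G6pdx overlaps an exon of Ikbkg on the opposite strand, which had a median of 1987 counts, and 16.6% of its stretches of 51 bases occur in transcripts of other genes, mostly Ikbkg and G6pd2.

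The genes whose deviations from the group means followed G6pdx most closely over the 38 libraries were Pgd (r = 0.93), the third enzyme of the same pathway, and Acly (r = 0.90) and Acaca (r = 0.90), enzymes of fatty acid synthesis. For Hmox1 they were Nfam1 (r = 0.83), Bin2 (r = 0.81), and B430306N03Rik (r = 0.78), and for Slc7a11 they were Sprr1a (r = 0.78), Lilr4b (r = 0.77), and Sh3pxd2b (r = 0.75). For Srxn1 they were Prkx (r = 0.84), Ctps2 (r = 0.81), and Cstb (r = 0.81), and for Gclm they were Nectin3 (r = 0.84), Zbtb44 (r = 0.80), and Setdb2 (r = 0.80). The closest genes were Tmpo (r = 0.79) for Txnrd1, Birc5 (r = 0.78) for Nfe2l2, Zbtb32 (r = 0.76) for Keap1, Gm38156 (r = 0.70) for Gclc, and Itgb1bp1 (r = 0.67) for Nqo1. These genes were picked as the highest of all tested genes, and the points share the library and its depth.

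**Figure D3:**
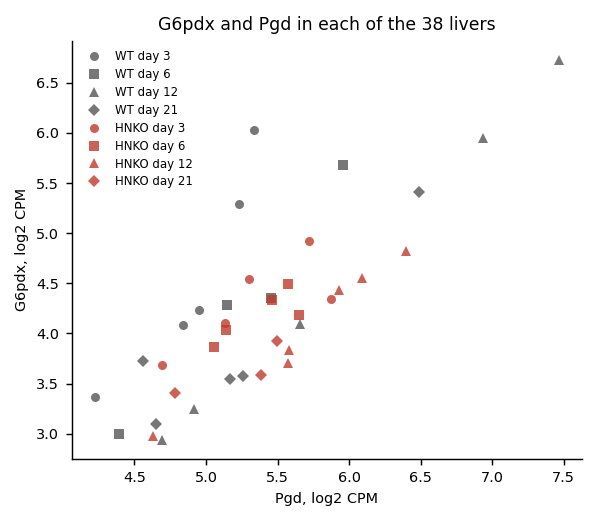
Log2 CPM of Pgd (x axis) and G6pdx (y axis) in each of the 38 livers, coloured by genotype and shaped by day. The liver with the highest G6pdx (6.73, WT on day 12) also had the highest Pgd (7.47), while WT library 26 had the next highest G6pdx (6.03) and a Pgd of 5.34, and the 6 highest G6pdx values were in WT livers.

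Among the members, deviations from the group means were also compared over the 38 libraries, with permutation tests of 100000 resamples within groups, two-sided and adjusted over the 45 pairs. For 8 pairs both r and rho passed. Srxn1 went with Slc7a11 (r = 0.63, rho = 0.57, adjusted p = 0.0089 and 0.017), with Txnrd1 (r = 0.62, rho = 0.51, adjusted p = 0.0058 and 0.019), and against Gclm (r = -0.62, rho = -0.65, adjusted p = 0.0047 and 0.0013). Without the 2 libraries farthest on Slc7a11, on Srxn1, and on Gclm, in this order, these r were 0.53, 0.48, and -0.53. Slc7a11 had at most 12 counts in a WT library, so its deviations rest mainly on HNKO livers. G6pdx went with Txnrd1 (r = 0.57, rho = 0.52, adjusted p = 0.0089 and 0.019) and Srxn1 (r = 0.52, rho = 0.54, adjusted p = 0.0047 and 0.017). It went against Gclm (r = -0.54, rho = -0.55, adjusted p = 0.0089 and 0.017). Without the 2 libraries farthest on G6pdx these r were 0.53, 0.43, and -0.52. Nqo1 went with Srxn1 (r = 0.49, rho = 0.51, adjusted p = 0.026 and 0.019, and r = 0.47 without the 2 farthest on Nqo1). Hmox1 and Gclm also went in opposite directions (r = -0.48, rho = -0.51, adjusted p = 0.014 and 0.018, and r = -0.45 without the 2 farthest on Gclm). Within groups, Gclm therefore deviated opposite to Srxn1, G6pdx, and Hmox1.

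By day, no member had a genotype effect that differed between days after adjustment. edgeR's interaction test called 0% of all tested genes, with 966 genes at an unadjusted p under 0.05, and the lowest p of a member was that of Hmox1 (unadjusted p = 0.014, adjusted p = 0.996). Within HNKO, 2 members differed between days, Hmox1 (adjusted p = 0.00017) and Slc7a11 (adjusted p = 0.026), as did 7.9% of all tested genes. Slc7a11 passed the filter through HNKO libraries, and without it only Hmox1 was called. The call of Slc7a11 was lost without HNKO library 29, 30, or 38. Within WT 0 members differed between days, with Gclm at an unadjusted p under 0.05 (as were 4312 of all tested genes), and 5.84% of all tested genes did.

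Exact permutation tests of log2 CPM, two-sided and not adjusted for the 40 pairs of member and day computed, gave p = 0.0079 for Hmox1 and for Keap1 on day 6, the smallest p that this design allows. For Slc7a11, which passed the filter through HNKO libraries, they gave 0.13, 0.016, 0.0043, and 0.054 on days 3, 6, 12, and 21. Its higher level on day 3 thus did not pass this test. They gave 0.056 and 0.048 for Srxn1 on days 3 and 6, and 0.018 for Keap1 and for Gclc on day 21, the smallest p that 3 against 5 allows.

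Markers of several liver cell types differed between HNKO and WT. The summed CPM of 6 hepatocyte markers on day 6 was 55670 to 101000 in HNKO and 116100 to 131700 in WT, and 2 of the 6 were called lower. The summed CPM of 6 cholangiocyte markers on day 6 was 165.3 to 753.6 in HNKO and 34.33 to 46.26 in WT, and 5 of the 6 were called higher. The 6 markers of recruited macrophages and monocytes summed to 129 to 377.9 in HNKO and 70.3 to 85.82 in WT, and all 6 were called higher. The 6 markers of stellate cells and myofibroblasts summed to 265.2 to 1056 in HNKO and 129.5 to 142.3 in WT, and 4 were called higher. The 6 Kupffer cell markers summed to 558 to 697.6 in HNKO and 434.7 to 567.7 in WT on day 6, and 0 of the 6 were called. The 2 neutrophil markers that passed the filter, S100a8 and S100a9, summed to 5.411 to 22.04 in HNKO and 0.674 to 1.344 in WT, and both were called higher. Of the 5 sinusoidal endothelial markers, 1 was called lower (sums of 417.8 to 511.9 in HNKO and 480.8 to 511.8 in WT), and of the 5 lymphocyte and 5 erythroid markers 0 were called. In the mean over the 4 days, all 6 cholangiocyte, all 6 recruited macrophage, 5 of 6 stellate, 3 of 6 Kupffer cell, and both neutrophil markers were called higher. In that mean, 3 of 6 hepatocyte markers and 1 of 5 sinusoidal endothelial markers were called lower. Of all tested genes, 19.2% were called higher and 17.3% lower in the mean, and 8.42% and 4.37% on day 6. These shares were 2.95% and 1.71% on day 3 and 4.56% and 3.27% on day 12. The count of sinusoidal endothelial markers does not stand apart from such shares. On the other days on which Slc7a11 was called, the cholangiocyte markers summed to 111.7 to 402.5 in HNKO and 42.62 to 48.84 in WT (day 3) and to 106.9 to 217.5 and 39.4 to 44.37 (day 12). The neutrophil markers overlapped on both days, with 0.9829 to 5.117 in HNKO and 0.8641 to 2.123 in WT on day 3 (0 of 2 called) and 0.5445 to 5.273 and 0.3828 to 0.9426 on day 12 (1 of 2 called higher). The recruited macrophage markers overlapped on day 3 (90.87 to 222.5 and 81.72 to 112.9, with 3 of 6 called higher) and on day 12 (66.25 to 134.6 and 50.05 to 67.6, with 4 of 6). Of the stellate markers, 3 and 2 of 6 were called higher on days 3 and 12, and of the hepatocyte markers 0 were called, with sums of 66290 to 120400 and 116800 to 125800 on day 3 and 87570 to 112800 and 105700 to 147700 on day 12. In whole liver RNA, a change in the number of cells of a type and a change in RNA per cell cannot be told apart.

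Several members followed these markers within groups, by the same permutation tests adjusted over 90 pairs of member and marker list. Both r and rho passed for 5 pairs, and r alone for a further 5. The deviations of Slc7a11 went with those of the neutrophil markers S100a8 and S100a9 (r = 0.69, rho = 0.70, adjusted p = 0.0081 for both) and of the recruited macrophage markers (r = 0.61, rho = 0.60, adjusted p = 0.032 and 0.026), and against those of the hepatocyte markers (r = -0.66, rho = -0.54, adjusted p = 0.0096 and 0.026). Without the 2 libraries farthest on the marker these r were 0.72, 0.59, and -0.58. Srxn1 also went with S100a8 and S100a9 (r = 0.61, rho = 0.65, adjusted p = 0.018 for both, and r = 0.67 without those 2). Hmox1 did so as well (r = 0.71, rho = 0.60, adjusted p = 0.0096 and 0.026, and r = 0.59 without the 2 farthest libraries), and the other 3 neutrophil markers, Ly6g, Mpo, and Elane, did not pass the filter. The pairs for which only r passed were the cholangiocyte markers with Slc7a11 (r = 0.67, rho = 0.46, adjusted p = 0.018 and 0.13), Srxn1 (r = 0.65, rho = 0.52, adjusted p = 0.018 and 0.091), and Nfe2l2 (r = 0.59, rho = 0.45, adjusted p = 0.047 and 0.13), the sinusoidal endothelial markers with Keap1 (r = 0.48, rho = 0.43, adjusted p = 0.049 and 0.095), and the Kupffer cell markers with Hmox1 (r = 0.58, rho = 0.38, adjusted p = 0.032 and 0.14). The last rested on 2 libraries, since r was 0.34 without them. Slc7a11 passed the filter through HNKO libraries, and its WT counts on days 6 and 12 were 0 to 2. The SD of its log2 CPM was 0.76 to 2.06 in the HNKO groups and 0.31 to 0.96 in the WT groups. Its correlations therefore rest mainly on HNKO livers. The part of these cells in the levels of the members was not tested.

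**Figure D4:**
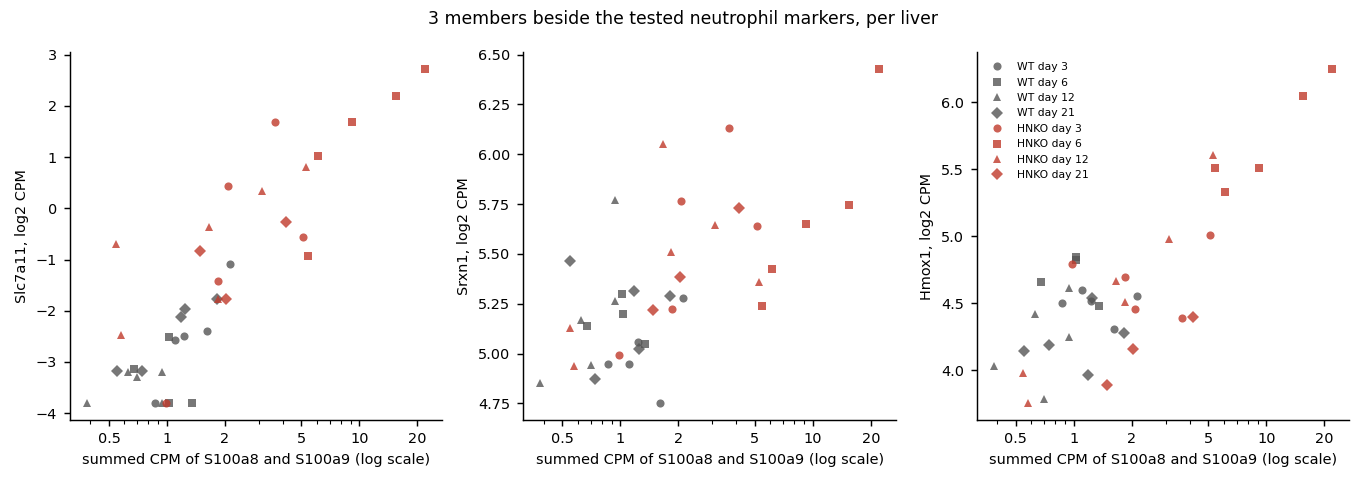
Log2 CPM (y axis) of Slc7a11, Srxn1, and Hmox1 beside the summed CPM of the neutrophil markers S100a8 and S100a9 (x axes, log scale), in each of the 38 livers, for WT (grey) and HNKO (red) mice with a shape for each day. The HNKO livers of day 6 (squares) lie at 5.411 to 22.04 CPM of the markers, and HNKO library 29 of day 6 holds the highest Hmox1 (6.25) and the highest marker sum.

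Other genes of the pathway were taken from 7 lists of 59 genes, of which 58 passed the filter and Ggt1 did not. On day 3, 2 were called higher and 3 lower, on day 6, 5 and 6, on day 12, 3 and 5, and on day 21, 1 and 2. Of all tested genes, 2.95% were higher and 1.71% lower on day 3, 8.42% and 4.37% on day 6, 4.56% and 3.27% on day 12, and 2.21% and 0.916% on day 21. In the mean over the 4 days, 11 were higher and 17 were lower, and the median log2 fold change was -0.05. These are counts beside 19.2% of all tested genes higher and 17.3% lower in that mean. This background holds for each list below, and nothing particular to a list is read from its counts. The 11 higher genes include Gsta1, Mgst2, and Gpx2, which passed the filter through HNKO libraries. On single days, Gsta1 was called on 1 day and Gpx2 on 2. Such a filter favours a higher level in HNKO, so no total of higher genes is read as a result.

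Ptgr1, a reductase of reactive alkenals, was the only one of the 58 called at all 4 days. Its level was 1.98 to 3.02 log2 CPM in HNKO and 0.78 to 1.49 in WT on day 6, without overlap. The groups were also apart on day 21 (2.42 to 3.07 and 1.47 to 1.83). They overlapped on day 3 (1.59 to 3.07 and 1.17 to 2.14) and on day 12 (1.52 to 2.78 and 0.23 to 1.54). Of all tested genes, 8.08% were higher without overlap on day 6 and 7.25% on day 21. The log2 fold change was 1.01 ± 0.28 (adjusted p = 0.03) on day 3, 1.22 ± 0.31 (adjusted p = 0.0073) on day 6, 1.11 ± 0.27 (adjusted p = 0.013) on day 12, and 1.14 ± 0.31 (adjusted p = 0.035) on day 21. In the same list of 11 detoxification and export genes, Akr1b8, an aldo-keto reductase, was higher (0.57 ± 0.10) and Abcc2, an exporter of conjugates, was lower (-0.33 ± 0.07) in the mean over the 4 days, where 4 of the list were higher and 2 lower.

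Of 11 glutathione transferases, which join glutathione to electrophiles, 4 were higher and 3 lower in the mean over the 4 days. Of the 4, Gsta1 and Mgst2 passed the filter through HNKO libraries (6 and 9 of 19 at the cutoff, against 0 and 1 of 19 in WT), which favours a higher level in HNKO, and nothing is read from their calls. Gsta3, one of the abundant forms, was lower by a log2 fold change of -0.58 ± 0.07 (adjusted p = 2.0e-07), and it was called at 3 of the 4 days. On day 6 it was 8.80 to 9.38 log2 CPM in HNKO and 9.77 to 10.2 in WT, without overlap. On day 3 the highest HNKO liver (9.71) also lay below the lowest WT liver (9.73). These values overlapped on day 12 (9.78 and 9.76) and on day 21 (9.64 and 9.61). Of all tested genes, 4.68% were lower without overlap on day 6 and 1.8% on day 3. Gstp1 was higher (0.44 ± 0.09), but 33.5% of its stretches of 51 bases also occur in Gstp2. Gsta1 had sums of 99 against 3 counts on day 6, and 90.3% of its stretches occur in other genes, so its value is uncertain.

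Of 7 tested genes of glutathione handling, 2 were higher and 1 was lower in the mean over the 4 days. Gss, glutathione synthetase, was higher by 0.33 ± 0.08, and it overlaps exons of Acss2 on the opposite strand, which had a median of 10611 counts. Gpx2, a glutathione peroxidase of epithelia, was called higher from 48 counts in HNKO against 1 in WT on day 6 (ratio 28.3, 95% interval 4.84 to 1140 for counting error), and it passed the filter through HNKO libraries, since 0 of 19 WT libraries reached the cutoff, and nothing is read from its call. Glrx, a glutaredoxin, was lower by a log2 fold change of -0.37 ± 0.06.

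Of 6 thioredoxin and peroxiredoxin genes, 3 were lower and 0 higher in the mean over the 4 days. Txn2, the mitochondrial thioredoxin, had a log2 fold change of -0.56 ± 0.08, Prdx6 -0.35 ± 0.07, and Txnip, an inhibitor of thioredoxin, -0.65 ± 0.14. An antisense gene, Gm15441, covers 15.6% of the stretches of Txnip and had a median of 7 counts. Of 10 regulators of NRF2, 3 were lower and 1 was higher. The lower ones were Nfe2l1, a related factor (-0.36 ± 0.06), Cul3, the ligase scaffold that works with KEAP1 (-0.18 ± 0.04), and Mafg, a small MAF partner (-0.23 ± 0.06), whose exons overlap those of Sirt7 on the same strand.

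Of 6 other genes of NADPH supply, 2 were lower and 0 higher, namely Me1, malic enzyme (-1.04 ± 0.29, with 27.9% of its stretches in other genes), and Idh1 (-0.30 ± 0.07), whereas Taldo1 was at 0.08 ± 0.05 (adjusted p = 0.21). Of 7 genes of heme and iron handling, 3 were lower and 0 higher. Fth1, the ferritin heavy chain, had a log2 fold change of -0.27 ± 0.05, Fech, which inserts iron into protoporphyrin to form heme, -0.26 ± 0.06, and Abcb6 -0.24 ± 0.09. Of the stretches of Abcb6, 49.9% also occur in Gm29253, which had a median of 0 counts. Ftl1, the ferritin light chain, was at -0.07 ± 0.09. Fth1 was called on 1 day, day 21 (-0.48 ± 0.10, adjusted p = 0.0097), when Hmox1 was not.

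**Figure D5:**
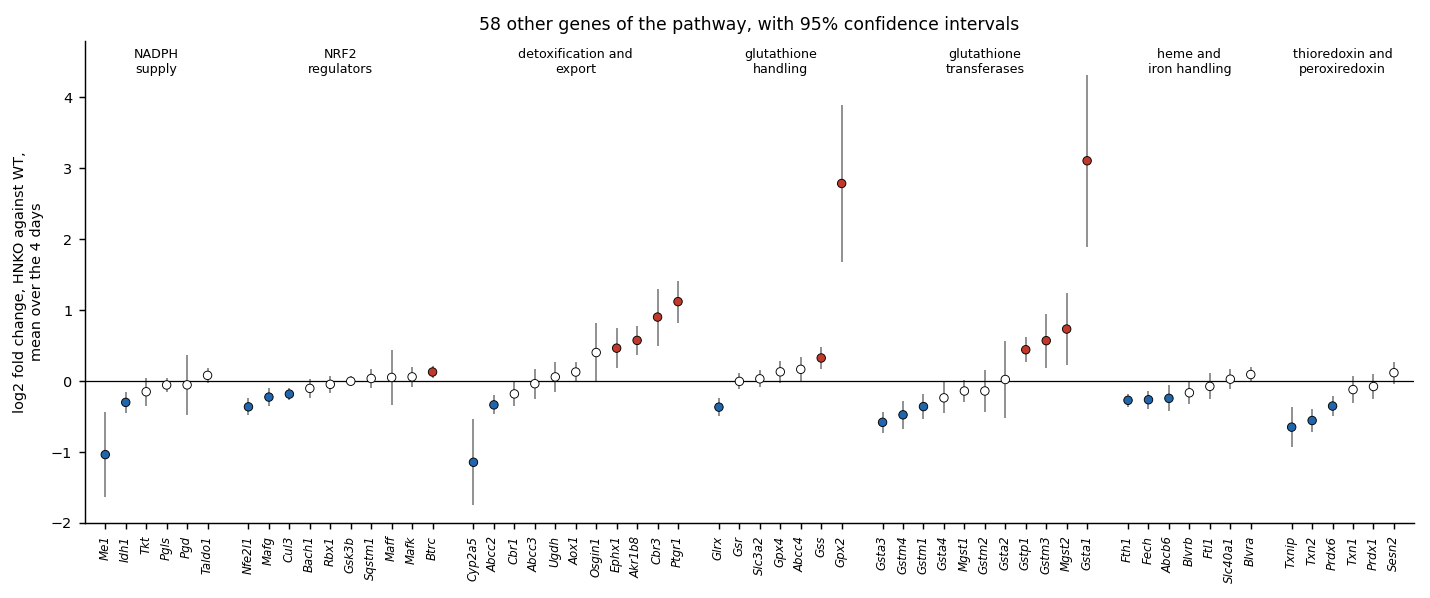
Log2 fold change of HNKO against WT in the mean over the 4 days (y axis) for the 58 tested pathway genes in 7 lists (x axis), with bars for the 95% confidence interval, coloured red where called higher, blue where called lower, and white otherwise. 11 genes are red and 17 are blue, and Gsta1 and Gpx2 have the widest intervals. The red genes include Gsta1, Mgst2, and Gpx2, which passed the filter through HNKO libraries.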

How the data were processed

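Whole liver RNA of 40 mice was sequenced as 51-bp pairs after rRNA depletion. The authors aligned reads to GRCm38 with STAR 2.7.2b, counted fragments on genes with featureCounts 1.6.4, and deposited the raw, unscaled counts as a single gene table (versions from the submitters' processing notes). Libraries were matched to genotype and day by the labels, and 38 were used. Genes were kept by edgeR's filter (minimum count 10, minimum total 15, minimum proportion 0.7), which left 99.9% of counts. After TMM scaling, edgeR 4.0.16 (legacy quasi-likelihood, R 4.3.3) fitted a mean for each of the 8 groups, with p-values adjusted over the 20297 tested genes and called under 0.05. Log2 CPM used a prior count of 2. Depth, spread between mice, and 3 to 6 mice per group set the precision. p-values measure the spread between these samples.

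The members and all lists were chosen with earlier results of these data known. The text names Nampt, the 10 members, of each of 7 pathway lists the 3 genes with the smallest p in the mean over the 4 days, and the genes most correlated with each member. Of the similar genes, 3 per member were found, and for 5 members the first is named. Ggt1, Mgst2, Ftl1, and neutrophil markers were named after their values were seen. Gene positions, exon lengths, and shared stretches came from GENCODE M21 on GRCm38. Alternatives were RLE factors, DESeq2 1.42.0, no filter beyond 1 count, a floor of 10 counts in each library, the 2 groups of a day alone, the run of library numbers as a covariate, a prior count of 0.5, inclusion of all 40 libraries, and leaving out each library. The edgeR 4 computation was added after seeing the data.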

Additional observations from a re-analysis of the deposited data

Results flagged for a closer look

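For the 10 members and Nampt, in 5 of 77 groups of 4 to 6 libraries tested for a library far from the rest, 1 library stood apart, and chance flags about 1 in 20. These were Nfe2l2 in WT library 26 at day 3 (6.11 log2 CPM, low), Gclm in HNKO library 29 at day 6 (7.05, low), Txnrd1 in HNKO library 2 at day 3 (6.75, low), G6pdx in WT library 41 at day 21 (5.41, high), and Nampt in WT library 16 at day 12 (7.24, high). HNKO library 29 also held the highest Slc7a11, Srxn1, and Hmox1 of day 6.

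The 2 HNKO libraries of day 21 that failed quality control were scaled with all 40 libraries and compared with WT of day 21. Of their 20 values, 6 lay above every WT liver and 10 below. Those above were Nfe2l2 in library 17 (6.75) and, in library 18, Hmox1 (4.78), Nqo1 (3.90), Slc7a11 (-0.56, from 11 counts), Srxn1 (5.54), and Txnrd1 (7.14). In library 17, Nqo1 had 2 counts and Slc7a11 had 0. The cause was not tested.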

How the results depend on the processing

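No paired analysis was possible because no library number occurs in 2 groups. Under settings other than leaving out a library, 400 log2 fold changes of the members and Nampt kept their direction and side of the threshold, 4 lost a call, 3 gained one, and 3 turned sign, while 45 counts of all genes and 47 of members stayed within 1.5 times, 78 group means moved by less than 1 SD, and 2 (Slc7a11 in WT at days 6 and 12 with a prior count of 0.5) moved by more. With DESeq2, 1428 genes were called at day 3 and 994 at day 21, against 945 and 634. With no filter beyond 1 count, 0 members were called at day 3. With at least 10 counts in every library, 0 members were called at days 3 and 12, 1 at day 6, and 1 between days within HNKO, since Slc7a11 was not tested there. With all 40 libraries, 0 members were called at day 3 and 1 (Keap1) at day 21, 331, 1321, 624, and 1350 genes at days 3, 6, 12, and 21 (2596 and 1588 at days 6 and 12 with 38), and 581 between days within WT (1185 with 38). In the 2 groups of a day alone, 0 members were called at days 3 and 12, where Slc7a11 was not tested, and 420, 1325, and 867 genes at days 3, 6, and 12. With the run of library numbers as a covariate, 2224 genes differed between days within WT. Of log2 fold changes that were not called, Txnrd1 at day 21 turned to -0.022 with all 40 libraries and to -0.075 with the covariate, and Hmox1 at day 21 turned to 0.041 with the covariate. Where no cause is named, the cause was not tested.

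Leaving out 1 library in turn gave 0 to 2 members called at day 3, 2 to 3 at day 6, 1 at day 12, 0 at day 21, 4 to 5 in the mean over the 4 days, 0 for the interaction, 0 between days within WT, and 1 to 2 within HNKO. For all genes it gave 322 to 1668 at day 3 (lowest without HNKO library 23, highest without HNKO library 22), 1126 to 3027 at day 6 (without HNKO libraries 29 and 31), 852 to 1750 at day 12 (without WT library 15 and HNKO library 32), 13 to 718 at day 21 (without HNKO libraries 37 and 38), 5954 to 7581 in the mean, 0 to 3 for the interaction, 811 to 1385 within WT, and 1183 to 1770 within HNKO. Values that were not called and turned sign ranged from -0.66 to 0.17 for G6pdx at day 21 and -0.73 to 0.20 at day 6, -0.23 to 0.030 for Gclc at day 6, -0.090 to 0.059 for Gclm at day 6, -0.19 to 0.068 for Hmox1 at day 21, -0.034 to 0.084 and -0.065 to 0.25 for Nfe2l2 at days 12 and 21, -0.0042 to 0.15 and -0.022 to 0.18 for Nqo1 at days 3 and 6, and -0.00098 to 0.088, -0.12 to 0.019, and -0.060 to 0.094 for Txnrd1 at days 3, 12, and 21.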
